A study of Mus musculus with 6 samples.

Results

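Cholesterol synthesis and transport genes are 31 genes that make, regulate, move or dispose of cholesterol. They were chosen by name from the annotated mouse genes of the table, not by their values, and all 31 were found among its 53715 genes and passed the filter that left 16123 genes for testing. They comprise 7 enzymes of the mevalonate steps, 11 enzymes that turn the resulting isoprenoid into sterol, 5 regulators of the SREBP (sterol regulatory element-binding protein) pathway and 8 genes of sterol transport and turnover. The data are RNA-seq of the cerebellum of male wild-type C57BL/6 mice that ate a purified diet low in manganese (low-Mn, given as 0 ppm) or one with the usual amount (normal-Mn, 35 ppm) for 2 weeks, with 3 libraries per diet. The mice were 4 weeks old at purchase, and the labels call them adult. Each library held the polyadenylated RNA of 1 whole cerebellum. The methods call the 3 mice of a diet biological replicates, whereas a legend calls them technical triplicates, in which case the p-values measure only technical spread. The question was which transcripts differ in a cerebellum short of manganese.

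Cholesterol in the brain is made on site, because the lipoproteins of the blood do not cross into it, and most of it sits in myelin. The mevalonate pathway builds an isoprenoid from acetyl-CoA, squalene synthase joins a pair of these units, and a chain of reductases, oxidases and isomerases trims the ring to cholesterol. When sterol in the endoplasmic reticulum is low, SCAP carries the SREBP factors to the Golgi, where they are cut and released to switch on most of these enzymes. When it is high, the INSIG proteins hold SCAP back. Astrocytes export cholesterol on particles of apolipoprotein E through ABCA1 and ABCG1. Neurons take these particles up, release the sterol from lysosomes through NPC1 and NPC2 and dispose of a surplus by hydroxylation or as esters.

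The stretches before the transcription start of 3 synthesis genes are shown because of their positions in the data that follow. There Hsd17b7 was higher and Hmgcs1 and Nsdhl were lower in every low-Mn library than in any normal-Mn library. They come from RefSeq (build GRCm38.p6), run 5′ to 3′ in the direction of transcription and exclude bases inside the annotated gene. Capitals mark matches on either strand to 4 short motifs, namely the sterol regulatory element TCACNCCAC, the CCAAT box, the E-box CACGTG and the GC box GGGCGG. Hmgcs1 lies at chr13:119690101-119690350 on the plus strand, Hsd17b7 at chr1:169969242-169969455 on the minus strand and Nsdhl at chrX:72918271-72918520 on the plus strand.
Hmgcs1: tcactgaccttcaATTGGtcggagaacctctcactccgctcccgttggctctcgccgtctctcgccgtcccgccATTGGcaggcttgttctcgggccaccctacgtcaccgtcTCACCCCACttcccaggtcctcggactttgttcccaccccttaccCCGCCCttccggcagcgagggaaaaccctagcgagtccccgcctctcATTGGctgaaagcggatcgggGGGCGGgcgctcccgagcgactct
Hsd17b7: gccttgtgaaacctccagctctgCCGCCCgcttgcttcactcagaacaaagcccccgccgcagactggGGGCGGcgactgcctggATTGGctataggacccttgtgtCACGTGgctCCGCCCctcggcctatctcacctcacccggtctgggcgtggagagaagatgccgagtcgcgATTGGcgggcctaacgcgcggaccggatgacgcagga
Nsdhl: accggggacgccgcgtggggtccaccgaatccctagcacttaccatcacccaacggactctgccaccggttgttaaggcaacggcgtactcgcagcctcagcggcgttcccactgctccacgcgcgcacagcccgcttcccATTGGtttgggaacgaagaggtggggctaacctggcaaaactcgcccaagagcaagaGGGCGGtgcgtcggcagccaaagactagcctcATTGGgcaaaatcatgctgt

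Motifs were counted in the 250 bases before each start. RefSeq entries matched 25 of the 31 members, some with several starts, which gave 35 windows. The CCAAT box occurred in 22 of these (62.9%), against 33.85% of all 32851 windows, and the GC box in 25 (71.4%), against 32.74%. The E-box occurred in 6 (17.1%), against 6.02%. The sterol regulatory element as spelled here occurred in 1, that of Hmgcs1, 137 bases before the start, against 1.05% of all windows. Among the 15 synthesis genes with an entry, 14 had a CCAAT box, Acat2 being the exception. Matches to different motifs overlapped in 0 of the 35 windows. A match describes the letters only. Hsd17b7 had 3 CCAAT boxes in its full window, 1 of them inside the annotated gene and so not printed, Hmgcs1 had 3 and Nsdhl had 2.

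The depth of the libraries was 17124327, 14548336 and 16319036 counts in low-Mn libraries and 21235216, 21277469 and 18446701 counts in normal-Mn libraries. The values are expected counts, in which RSEM divides a read that matches several genes between them by estimate, given here as CPM, the count relative to the library total, after scaling for library composition. Members had between 160 and 29731 counts in a library. Markers of granule neurons, which define the tissue, summed to between 6960 and 7105 CPM in low-Mn libraries and between 6806 and 7297 CPM in normal-Mn libraries. In the table the low-Mn columns carry a replicate number without the diet, and the 3 normal-Mn columns carry both. Across all genes 96 of 16123, or 0.595%, passed an adjusted p of 0.05 (edgeR quasi-likelihood test with Benjamini-Hochberg adjustment over all tested genes).

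Levels were first compared between members per length, as TPM, the share of transcripts after division by length, on the principal transcript of each gene. Apoe, the carrier protein that astrocytes secrete, stood far above every other member. It had 2181, 2291 and 2127 TPM in low-Mn libraries and 2316, 2358 and 2261 TPM in normal-Mn libraries. Hmgcs1, the HMG-CoA synthase that commits carbon to the mevalonate pathway, followed with 103.4, 99.5 and 103.6 TPM in low-Mn libraries, against 109.6, 105.6 and 112.5 TPM in normal-Mn libraries. Tm7sf2, a reductase of the sterol ring, was next, with 101.3, 107.7 and 99.8 TPM in low-Mn libraries and 104.7, 102.4 and 103.1 TPM in normal-Mn libraries. The order depended on the length used. Tm7sf2 ranked 9 when counts were divided by the length of all its exons, some of which overlap Vps51. By that measure Fdps fell from rank 8 to 21 and Msmo1 from 10 to 23, while Idi1 rose from 14 to 7.

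At the other end stood Nsdhl, Hsd17b7 and Soat1. With the length of all exons, Hsd17b7 and Soat1 kept their places, but Nsdhl ranked 27, ahead of Dhcr7 at 28 and Lss at 29. Soat1, the enzyme of the endoplasmic reticulum that esterifies cholesterol for storage, had the lowest level, at 7.13, 7.19 and 7.996 TPM in low-Mn libraries and 8.36, 7.96 and 9.47 TPM in normal-Mn libraries. Hsd17b7 had 10.8, 11.3 and 10.4 TPM in low-Mn libraries and 9.20, 7.55 and 9.10 TPM in normal-Mn libraries. Nsdhl had 12.2, 12.5 and 12.8 TPM in low-Mn libraries and 15.1, 15.1 and 13.7 TPM in normal-Mn libraries. Both enzymes take part in the removal of methyl groups from the sterol ring, in a shared complex with Msmo1, which stood at 49.7 TPM over all 6 libraries. That gap depended on the length used. With the length of all exons, the means over all 6 libraries were 23.1 TPM for Msmo1, 14.4 for Nsdhl and 12.3 for Hsd17b7. Between the extremes the order is loose: of 30 pairs of neighbours, 24 had overlapping ranges over the 6 libraries. The neighbours that did not overlap were Apoe and Hmgcs1, Tm7sf2 and Insig1, Srebf2 and Npc2, Npc1 and Mvk, Abca1 and Nsdhl, and Nsdhl and Hsd17b7.

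**Figure D1:**
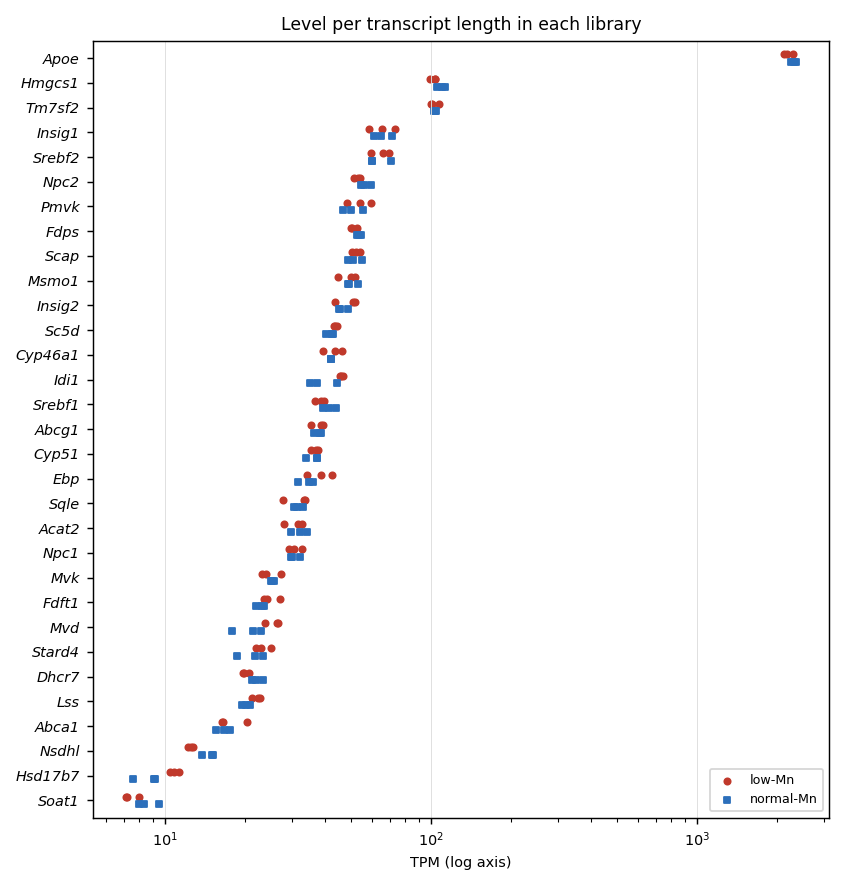
Level of each of the 31 members per transcript length (TPM, log axis) in the 3 low-Mn libraries (circles) and the 3 normal-Mn libraries (squares), ordered by the mean over all 6. Apoe stood at 2256 TPM on average and Soat1 at 8.02 TPM, and for most genes the spread between libraries was small beside the range of levels.

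Between the diets, none of the 31 members passed the test, against 0.595% of all tested genes (0.416% with low-Mn higher, 0.18% with low-Mn lower). DESeq2 and limma-voom also called 0 members, against 1.22% of the 10232 genes to which DESeq2 gave an adjusted p and 0.391% of all tested genes with limma-voom. The smallest adjusted p was 0.159, for Idi1. At an unadjusted p of 0.05, a threshold that 12.1% of all tested genes met, 8 members were found. Of these, 3 had higher values on the low-Mn diet (Mvd, Idi1 and Hsd17b7, against 6.54% of all tested genes) and 5 lower values (Hmgcs1, Nsdhl, Srebf1, Npc2 and Soat1, against 5.58%). Without low-Mn replicate 1 the 8 became 3. The libraries of the diets did not overlap for 12 members, against 17.1% of all tested genes, with low-Mn above in 5 (background 8.79%) and below in 7 (background 8.32%).

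All differences were small. Relative to normal-Mn, the ratio of levels ran from 0.841 for Nsdhl to 1.246 for Hsd17b7, and for 23 members it was under 1.1-fold in either direction. The log2 fold change of low-Mn over normal-Mn was positive for 15 members and negative for 16, with a median of -0.01, against -0.0025 over all tested genes. Its 95% interval lay within 0.5 of 0 on the log2 scale for 29 members and within 0.25 for 18, and the outermost bounds were -0.49 for Nsdhl and 0.52 for Hsd17b7. For 24 members the diet means differed by less than the wider of the ranges within a diet. The coefficient of variation within a diet ran from 0.247% to 15.2%, and its median was 5.61% among low-Mn libraries and 4.73% among normal-Mn libraries.

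**Figure D2:**
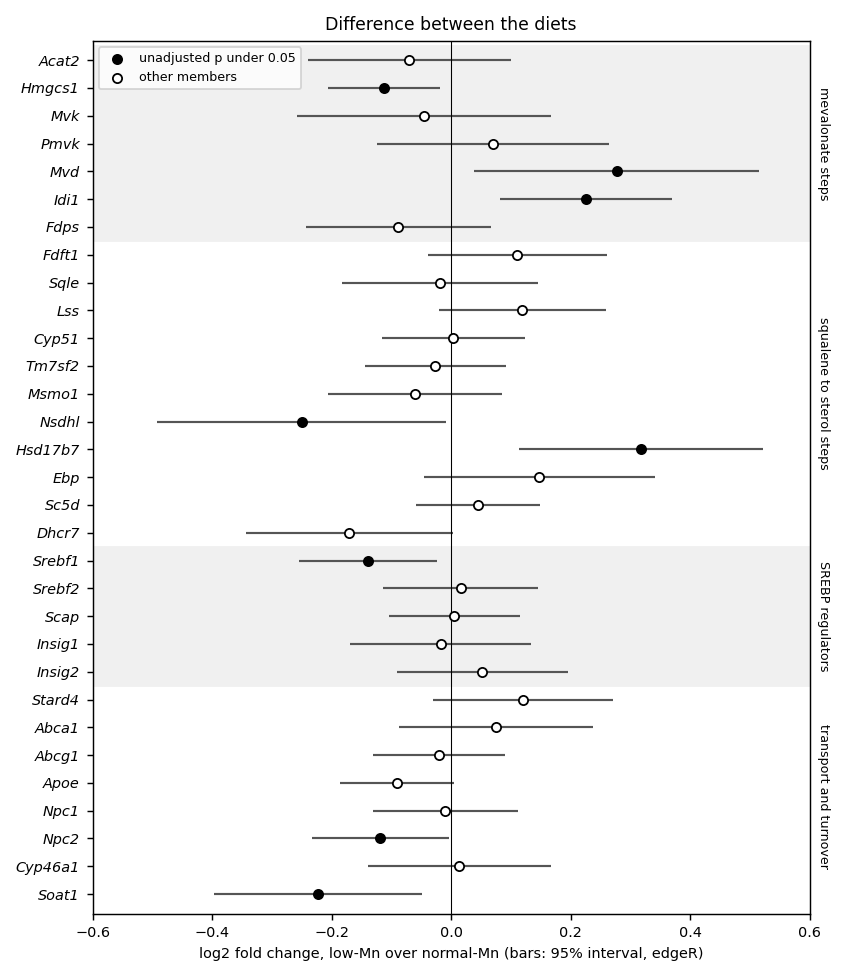
Log2 fold change of each member (low-Mn relative to normal-Mn) with its 95% interval from the edgeR fit, in pathway order. Filled points mark the 8 members with an unadjusted p under 0.05, none of which passed after adjustment, and positive and negative values are mixed along the synthesis pathway.

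Along the mevalonate steps, enzymes with higher and with lower values on the low-Mn diet stood side by side. Acat2, the cytosolic thiolase that joins a pair of acetyl-CoA, had 30.0, 28.9 and 25.6 CPM in low-Mn libraries, against 29.1, 28.5 and 31.2 CPM in normal-Mn libraries, and the diets overlapped. Hmgcs1 had 145.8, 139.9 and 145.6 CPM in low-Mn libraries, against 152.9, 156.0 and 157.4 CPM in normal-Mn libraries. Every low-Mn library was below every normal-Mn library, by a log2 fold change of -0.11 ± 0.045 (SE), with an adjusted p of 0.309 (edgeR). Mvk and Pmvk, the kinases that follow, overlapped between the diets, with log2 fold changes of -0.05 and 0.07.

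Mvd, the decarboxylase that yields isopentenyl diphosphate, had 18.8, 16.9 and 18.9 CPM in low-Mn libraries, against 15.2, 17.2 and 12.7 CPM in normal-Mn libraries. The diets overlapped, since low-Mn replicate 2 was below normal-Mn replicate 2, and normal-Mn replicate 3 was the lowest of all. The log2 fold change was 0.28 ± 0.11 (SE), with an adjusted p of 0.323 (edgeR), and 0.17 without normal-Mn replicate 3. Idi1, the isomerase that balances both forms of the isoprenoid unit, had 57.3, 56.4 and 56.0 CPM in low-Mn libraries, against 54.1, 45.5 and 45.5 CPM in normal-Mn libraries. Every low-Mn library was above every normal-Mn library, and normal-Mn replicate 1 stood nearer to the low-Mn libraries than to the other two of its diet. The log2 fold change was 0.23 ± 0.069 (SE), with an adjusted p of 0.159 (edgeR). Without normal-Mn replicate 1 the log2 fold change of Idi1 was 0.31 and its adjusted p 0.0436 (edgeR), the only alternative run in which a member passed, and its adjusted p ran from 0.0436 to 0.454 over all alternatives.

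Fdps, the synthase of farnesyl diphosphate and the last of the mevalonate steps, had 29.5, 28.3 and 28.0 CPM in low-Mn libraries, against 30.3, 31.5 and 29.5 CPM in normal-Mn libraries. The low-Mn libraries were all lower, though low-Mn replicate 1 and normal-Mn replicate 3 nearly met, and the log2 fold change was -0.09 (adjusted p = 0.694, edgeR). The median of the 7 mevalonate genes was -0.05.

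Several of these genes share sequence with other annotated genes, so that the split of reads rests on the estimate. At least 10% of the 50-base stretches in the exons of 5 members also occur elsewhere: Acat2 (39.1%, mostly Acat3), Fdft1 (26.5%, Ctsb), Fdps (26.2%, Gm43738), Idi1 (25.3%, mostly Gm13502) and Hmgcs1 (11.6%, Gm48342 and many others). Gm13502 had 0.22, 0 and 0.659 CPM in low-Mn libraries and 1.41, 0 and 0.212 CPM in normal-Mn libraries, and the sum of Idi1 and Gm13502 had a log2 ratio of diet means of 0.22, against 0.23 for Idi1 alone. For Hmgcs1 the ratio was -0.11 with and without Gm48342, and Gm43738 was listed at 0 in all 6 libraries. Without known strand in the counting, reads of Hmgcs1, Fdft1 and Scap cannot be told from those of an opposing gene in 12.1%, 18.3% and 13.2% of the exonic bases.

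Along the squalene to sterol steps, 6 of 11 enzymes had positive and 5 negative log2 fold changes, with a median of 0.0038, and 6 did not overlap between the diets, against 17.1% of all tested genes, 4 with low-Mn above and 2 below. Fdft1, squalene synthase, had 40.6, 36.4 and 35.3 CPM in low-Mn libraries, against 34.9, 34.5 and 34.7 CPM in normal-Mn libraries. The low-Mn libraries were all higher, low-Mn replicate 1 by the most, and the log2 fold change was 0.11 (adjusted p = 0.570, edgeR), and 0.048 without that library. Its neighbour Ctsb, cathepsin B, with which it shares exons on the opposite strand, had 592.7, 583.1 and 566.1 CPM in low-Mn libraries and 598.2, 585.4 and 566.9 CPM in normal-Mn libraries. The sum of Fdft1 and Ctsb had a log2 ratio of diet means of -0.0001. Ctsb makes up most of that sum, so it cannot show whether reads of Fdft1 were assigned rightly. Sqle, squalene epoxidase, overlapped, with a log2 fold change of -0.02.

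Lss, the cyclase that forms lanosterol, had 43.0, 42.3 and 40.2 CPM in low-Mn libraries, against 36.5, 40.0 and 39.2 CPM in normal-Mn libraries. The low-Mn libraries were all higher (log2 fold change 0.12, adjusted p = 0.494, edgeR). Cyp51, lanosterol demethylase, and Tm7sf2 overlapped, with log2 fold changes of 0.0038 and -0.03. Tm7sf2 had 60.6, 64.2 and 59.5 CPM in low-Mn libraries and 62.0, 64.3 and 61.3 CPM in normal-Mn libraries.

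The enzymes of the cycle that strips methyl groups from the ring, which act in turn as Msmo1, Nsdhl and Hsd17b7, gave the most divergent values. Msmo1, the oxidase, had 41.7, 43.0 and 37.1 CPM in low-Mn libraries and 43.7, 42.5 and 40.8 CPM in normal-Mn libraries, which overlapped. Nsdhl, the decarboxylating dehydrogenase on the X chromosome, had 10.8, 11.0 and 11.2 CPM in low-Mn libraries, against 13.2, 13.996 and 12.03 CPM in normal-Mn libraries. Hsd17b7, the reductase that completes the cycle, had 20.3, 21.1 and 19.5 CPM in low-Mn libraries, against 17.1, 14.9 and 17.0 CPM in normal-Mn libraries.

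For Nsdhl every low-Mn library was below every normal-Mn library, and for Hsd17b7 every one was above. The log2 fold change of Nsdhl was -0.25 ± 0.12 (SE), with an adjusted p of 0.392 (edgeR). That of Hsd17b7 was 0.32 ± 0.098 (SE), the largest of any member, with an adjusted p of 0.165 (edgeR), which ran from 0.146 to 0.476 over the alternatives. Neither gene shares exon sequence with another gene. Hsd17b7 lies on chromosome 1 from 169949535 to 169969241 on the minus strand, and Nsdhl on chromosome X from 72918557 to 72958514 on the plus strand (GRCm38).

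Ratios within a library set such pairs against each other without the library total. They were chosen after the values were seen and carry no test. Hsd17b7 over Nsdhl in CPM was 1.89, 1.92 and 1.74 in low-Mn libraries, against 1.30, 1.06 and 1.41 in normal-Mn libraries. The diets did not overlap, and the mean ratio was 1.47 times as high on the low-Mn diet. Idi1 over Hmgcs1 was 0.393, 0.403 and 0.385 in low-Mn libraries, against 0.354, 0.291 and 0.289 in normal-Mn libraries. These did not overlap either, with a mean 1.26 times as high on the low-Mn diet, and the normal-Mn libraries spread more widely. The ratios Srebf1 over Srebf2, Insig1 over Insig2 and Npc2 over Npc1 overlapped between the diets.

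**Figure D3:**
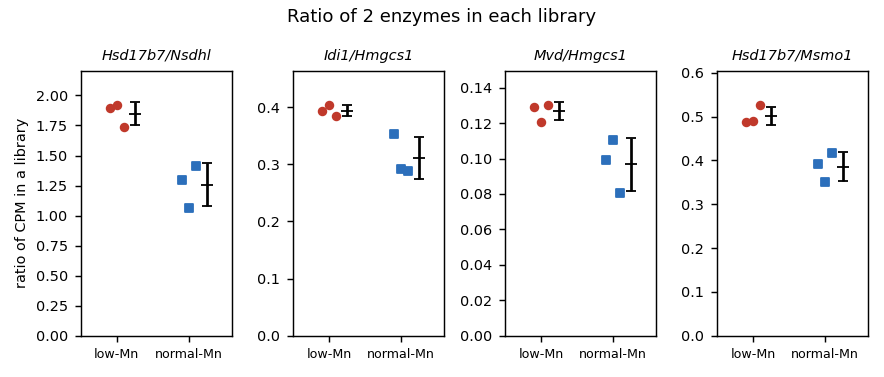
Ratio of the CPM of enzyme pairs in each library, low-Mn (circles) on the left and normal-Mn (squares) on the right of each panel, with mean and SD of 3 libraries in black. In all 4 panels the low-Mn libraries lie above the normal-Mn libraries, by a mean of 1.47 times for Hsd17b7 over Nsdhl and 1.26 times for Idi1 over Hmgcs1. The pairs were picked for this.

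Ebp, the sterol isomerase, overlapped, with a log2 fold change of 0.15 (adjusted p = 0.558, edgeR), which became 0.064 when low-Mn replicate 1 was left out, 0.23 when low-Mn replicate 3 was and 0.086 when normal-Mn replicate 3 was. Sc5d, the desaturase, had 84.7, 86.2 and 83.9 CPM in low-Mn libraries, against 82.1, 82.4 and 82.5 CPM in normal-Mn libraries. The diets did not overlap, yet the log2 fold change was 0.04 with a 95% interval from -0.06 to 0.15, so that separation of 3 against 3 libraries came with a very small difference. Dhcr7, the reductase of the last step, had 23.8, 22.5 and 22.3 CPM in low-Mn libraries, against 26.6, 26.4 and 24.2 CPM in normal-Mn libraries. All low-Mn libraries were lower, by a log2 fold change of -0.17 ± 0.083 (SE, adjusted p = 0.423, edgeR).

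**Figure D4:**
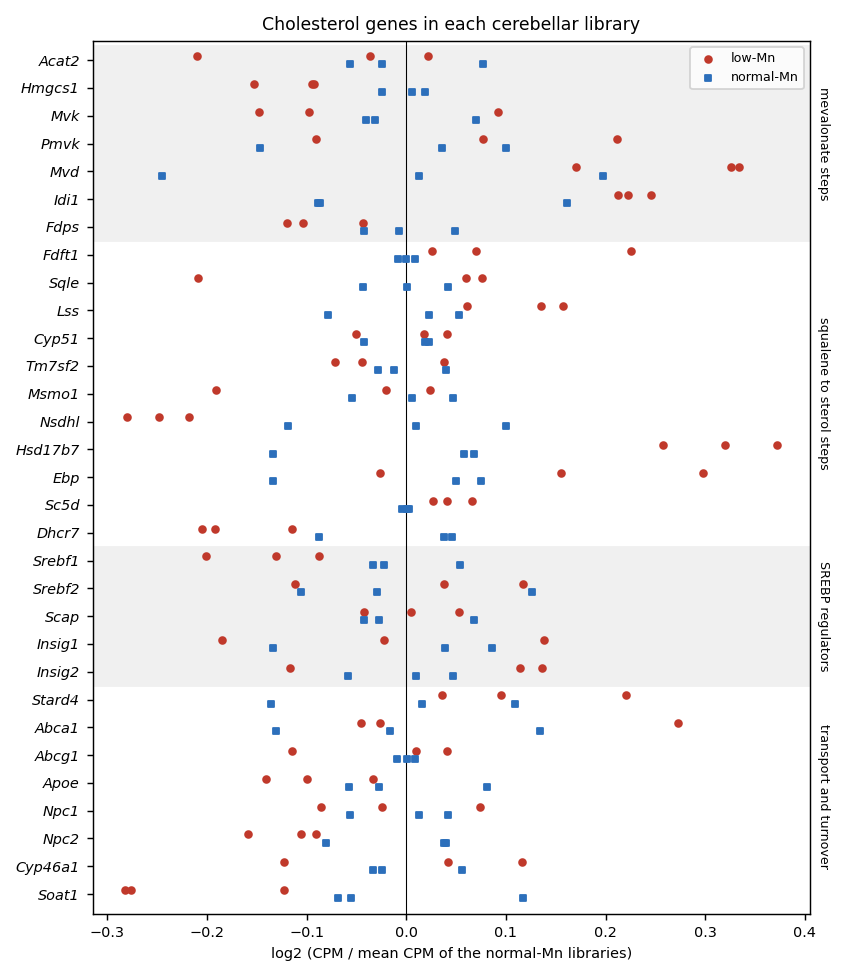
Log2 of the CPM of each member in each library over the mean CPM of the normal-Mn libraries, with low-Mn as circles and normal-Mn as squares, in pathway order. Hsd17b7 and Idi1 lie to the right and Nsdhl, Dhcr7 and Soat1 to the left on the low-Mn diet, and most other genes overlap.

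Within the low-Mn diet the libraries did not stand alike across the 18 synthesis enzymes. Low-Mn replicate 3 was the lowest of its diet for 15 of them, and for 33.8% of all tested genes. Low-Mn replicate 1 was the highest for 11 of them, and for 31.9% of all tested genes. The median log2 level of the 18 enzymes relative to the normal-Mn mean was 0.05, 0.05 and -0.08 in low-Mn libraries and 0.01, 0.02 and -0.03 in normal-Mn libraries. Both the highest and the lowest library of all 6 by this measure were thus on the low-Mn diet. In normal-Mn libraries the lowest value fell to replicates 1 to 3 for 5, 5 and 8 enzymes. Without low-Mn replicate 3, the member median was 0.0071 and 0 members passed the test.

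The regulators were nearly level between the diets, apart from Srebf1. Srebf1, whose product mainly drives fatty acid synthesis, had 63.8, 69.0 and 67.0 CPM in low-Mn libraries, against 71.6, 72.2 and 76.1 CPM in normal-Mn libraries. Every low-Mn library was lower, by a log2 fold change of -0.14 ± 0.055 (SE), with an adjusted p of 0.303 (edgeR). Srebf2, whose product mainly drives cholesterol synthesis, and Scap, the escort of both, had log2 fold changes of 0.02 and 0.0048. The 95% interval of Srebf2 ran from -0.11 to 0.15. Insig1, itself a target of the pathway, had 80.1, 71.7 and 64.0 CPM in low-Mn libraries and 77.3, 74.7 and 66.3 CPM in normal-Mn libraries, wider within each diet than between them. Insig2 had 55.8, 47.6 and 56.7 CPM in low-Mn libraries and 49.5, 51.9 and 53.3 CPM in normal-Mn libraries, which overlapped (log2 fold change 0.05).

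Among the transport and turnover genes, Stard4, a cytosolic carrier of sterol between membranes, had 51.7, 47.3 and 45.5 CPM in low-Mn libraries and 47.8, 40.4 and 44.8 CPM in normal-Mn libraries, which overlapped (log2 fold change 0.12, adjusted p = 0.533, edgeR). It became 0.065 when low-Mn replicate 1 was left out and 0.055 when normal-Mn replicate 2 was. The efflux pumps Abca1 and Abcg1 overlapped as well, with log2 fold changes of 0.08 and -0.02. Apoe had 1249, 1308 and 1214 CPM in low-Mn libraries, against 1314, 1415 and 1286 CPM in normal-Mn libraries. Low-Mn replicate 2 lay above the lowest normal-Mn library, so that the diets overlapped, and the log2 fold change was -0.09 ± 0.045 (SE, adjusted p = 0.434, edgeR), and -0.049 without normal-Mn replicate 2.

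Npc1, the membrane protein that passes sterol out of the lysosome, was level (log2 fold change -0.01, 95% interval from -0.13 to 0.11). Npc2, its soluble partner in the lysosome, had 71.4, 68.8 and 72.2 CPM in low-Mn libraries, against 78.9, 79.0 and 72.6 CPM in normal-Mn libraries. The low-Mn libraries were all lower, though normal-Mn replicate 3 nearly met them, and the log2 fold change was -0.12 ± 0.055 (SE, adjusted p = 0.392, edgeR). Cyp46a1, the neuronal hydroxylase that lets the brain shed cholesterol, had a log2 fold change of 0.01, with a 95% interval from -0.14 to 0.17. Soat1 had 24.3, 24.4 and 27.1 CPM in low-Mn libraries, against 28.2, 28.4 and 32.0 CPM in normal-Mn libraries. Every low-Mn library was lower, by a log2 fold change of -0.22 ± 0.083 (SE), with an adjusted p of 0.269 (edgeR).

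Wider lists of 93 genes around the pathway, 90 of them tested, also held 0 genes that passed (edgeR), with 5 higher and 10 lower at an unadjusted p of 0.05, against 6.54% and 5.58% of all tested genes. DESeq2 gave an adjusted p to 79 of them and called 4, Clu, Apod, Pltp and Scd2, all lower on the low-Mn diet, against 1.22% of all genes with such a p. The lipoprotein receptors and carriers came nearest to the threshold. Apod, a carrier of small lipids made by glia, had 232.2, 208.1 and 217.0 CPM in low-Mn libraries, against 235.7, 261.5 and 267.4 CPM in normal-Mn libraries. The diets did not overlap, and the log2 fold change was -0.22 ± 0.053 (SE), with an adjusted p of 0.0647 (edgeR), which was 0.0144 with DESeq2. Pltp, the phospholipid transfer protein, and Clu, clusterin, had log2 fold changes of -0.18 and -0.14 (adjusted p = 0.0875 and 0.166, edgeR), and both were lower in every low-Mn library than in any normal-Mn library. Over the 14 genes of this list, 5 had positive and 9 negative log2 fold changes.

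Of 11 fatty acid synthesis genes driven by SREBP1, 9 had negative log2 fold changes, with a median of -0.04, and 4 did not overlap, all with low-Mn below, against 8.32% of all tested genes. Scd2, the main stearoyl-CoA desaturase of brain, had 1724, 1747 and 1790 CPM in low-Mn libraries, against 1871, 1888 and 1950 CPM in normal-Mn libraries. Every low-Mn library was lower (log2 fold change -0.12, adjusted p = 0.218 with edgeR and 0.0175 with DESeq2). Fads1 and Scd1, also desaturases, had log2 fold changes of -0.11 each and did not overlap either.

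Of 19 genes of sterol transfer within the cell, 15 had positive log2 fold changes, with a median of 0.06. The 3 with the smallest p were the oxysterol-binding relatives Osbpl11, Osbpl8 and Osbp2, at 0.23, 0.13 and 0.12 (adjusted p = 0.296, 0.346 and 0.387, edgeR). The median of the list by library was 0.04, 0.04 and 0.06 in low-Mn libraries and 0.01, -0.02 and 0.03 in normal-Mn libraries, which did not overlap. Of the 9 genes of SREBP cleavage and turnover, Erlin2, a protein of the endoplasmic reticulum membrane, had a log2 fold change of -0.14 (adjusted p = 0.296, edgeR), and Paqr3, which anchors SCAP at the Golgi, 0.27 (adjusted p = 0.412, edgeR). The electron donor Cyb5r3, which serves the sterol oxidases, had -0.16 (adjusted p = 0.299, edgeR). The isoprenoid branch, LXR axis and oxysterol lists had medians between -0.01 and 0.03, with no adjusted p under 0.399 (edgeR).

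Marker lists of cell types were set beside these genes. Of 24 oligodendrocyte markers, 23 had negative log2 fold changes, with a median of -0.13, and Gjc3 was among those that passed the test. Their summed level ran from 8023 to 8374 CPM in low-Mn libraries, against 8601 to 9493 CPM in normal-Mn libraries, and none of the 24 was at 0 in every library. In bulk tissue, fewer cells of a type and less RNA per cell cannot be told apart. Of 20 astrocyte markers, 16 had negative log2 fold changes, with a median of -0.08 and a summed level from 9685 to 9971 CPM in low-Mn libraries, against 10210 to 10521 CPM in normal-Mn libraries. Of 15 microglia markers, 13 had negative ones, with a summed level from 207.1 to 218.5 CPM in low-Mn libraries, against 231.5 to 235.8 CPM in normal-Mn libraries.

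The 13 choroid plexus markers had a median of -0.26, with 2302 to 2849 CPM in low-Mn libraries and 2657 to 3231 CPM in normal-Mn libraries, which overlapped, and Kl and Sostdc1 passed the test. The 14 meningeal markers had a median of -0.21, with 442.7 to 511.0 CPM in low-Mn libraries and 533.6 to 607.3 CPM in normal-Mn libraries, and Fn1 and Igf2 passed. Of 15 endothelial and mural markers, 9 had positive log2 fold changes, with a median of 0.06, 395.5 to 433.0 CPM in low-Mn libraries and 396.5 to 422.7 CPM in normal-Mn libraries. Granule neuron and Purkinje neuron markers had medians of 0.002 and 0.04. The part of these cell types in the lower values of Hmgcs1, Nsdhl, Dhcr7, Apoe, Npc2, Soat1, Apod or Scd2 was not tested. The median of the 18 synthesis enzymes was -0.0075, and its gap to the glial lists was not tested.

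**Figure D5:**
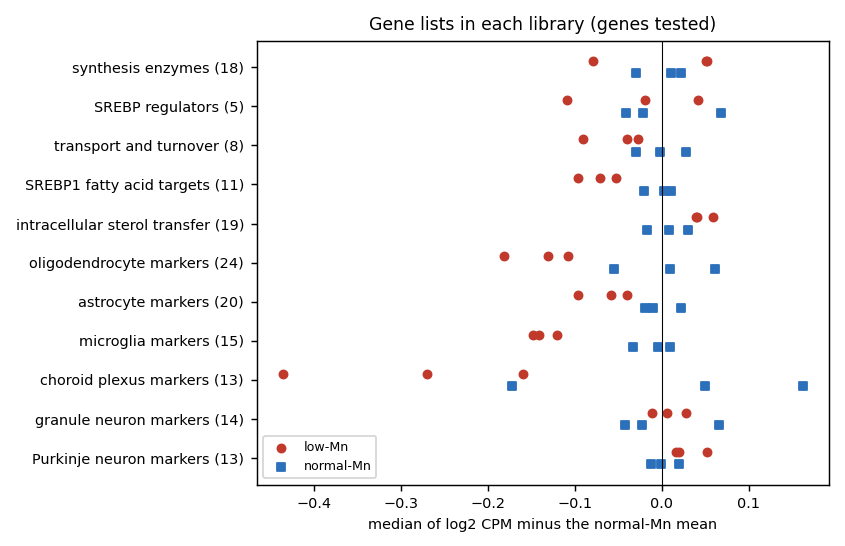
Median over each list of the log2 CPM minus the normal-Mn mean, in each low-Mn library (circles) and each normal-Mn library (squares), with the number of genes tested in brackets. Oligodendrocyte, astrocyte and microglia markers and the SREBP1 fatty acid targets lie lower in every low-Mn library, while the 18 synthesis enzymes overlap between the diets.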

How the data were processed

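The authors isolated RNA from 1 cerebellum per mouse, made oligo(dT) libraries, sequenced them on a NovaSeq and used STAR for alignment. In the submitters' processing notes RSEM, FastQC and DESeq2 are named, with mm10 as the genome build and no versions. The labels name a directional library kit and the methods one without that word, and no source used here gives the strand setting of the counting. Per gene, the authors deposited expected counts without normalization, with 7.12% to 7.74% of values not whole. The 92 spike-in entries, all 0, were left out. Low-Mn columns, named by number alone, were assigned by replicate number; all 6 columns matched their label in a table of the study over 137 genes.

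Expected counts were rounded, filtered with filterByExpr (minimum count 10, minimum total 15) and scaled with TMM (0.989 to 1.01) in edgeR 4.0.16 under R 4.3.3. Diets were compared with glmQLFit and glmQLFTest without covariates over all 6 libraries, and p-values of the 16123 genes were adjusted by Benjamini-Hochberg, with 0.05 as threshold. The fit was tested on simulated counts with changes of at least 1.25-fold. All 31 members differed by less than 1.25-fold, so that test does not show whether differences of their size would be found. The common dispersion was 0.00361. Intervals are 95%, and p-values cover the spread between libraries only. TPM used the length of the principal transcript in GENCODE M21, which gave 53620 of 53715 genes a symbol, or all exons as a check. Figures were drawn in Python 3.11.15 with matplotlib 3.10.9.

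Every member is accounted for. Values per library are given by rule for members with an unadjusted p under 0.05, for the 3 highest and 3 lowest levels per length and for the first and last step of each group, with up to 3 genes of each wider list, some of which are not reported here. Lss, Sc5d, Msmo1, Insig1 and the ratios were added after their values were seen. The members, lists and tests were chosen with earlier results of these data known. Alternatives were RLE and upper quartile factors, no filter, a mean of at least 100 counts, unrounded counts, limma-voom (limma 3.58.1), DESeq2 1.42.0, the replicate number as a block and each library left out.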

Additional observations from a re-analysis of the deposited data

How the results depend on the processing

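No member passed the test under RLE or upper quartile factors, without a filter, with a mean of at least 100 counts, with unrounded counts, limma-voom or DESeq2. Leaving out each library in turn gave 0 to 1 members that passed, the 1 being Idi1 without normal-Mn replicate 1, and 3 to 7 members at an unadjusted p under 0.05 against 8 with all libraries. The lowest of these, 3, came without low-Mn replicate 1, and the other alternatives gave 6 to 10. The member median ran from -0.02 to 0.0071 with libraries left out. Of the wider lists, 3 genes passed without a filter (Clu, Apod and Pltp), 1 with a mean of at least 100 counts (Apod), 4 with DESeq2, and 0 to 1 with a library left out, Apod again without normal-Mn replicate 1. Over all tested genes, 96 passed with the main settings, 424 without a filter, 63 with limma-voom, 125 with DESeq2 and 37 to 93 with a library left out.

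The members that changed sign had log2 fold changes from -0.061 (Msmo1) to 0.075 (Abca1) with the main settings. Cyp51 was -0.0079 with upper quartile factors, -0.0048 without a filter and -0.00019 with a mean of at least 100 counts. Scap was -0.0070 with upper quartile factors and -0.0038 without a filter. Upper quartile factors and no filter each moved the median of all genes to -0.01. With libraries left out, log2 fold changes ran from -0.12 to 0.0030 for Mvk, -0.0085 to 0.15 for Pmvk, -0.067 to 0.068 for Sqle, -0.018 to 0.030 for Cyp51, -0.10 to 0.00086 for Msmo1, -0.036 to 0.084 for Srebf2, -0.019 to 0.040 for Scap, -0.10 to 0.061 for Insig1, -0.036 to 0.15 for Abca1, -0.052 to 0.025 for Abcg1, -0.055 to 0.027 for Npc1 and -0.038 to 0.078 for Cyp46a1. Without a change of sign, Acat2 ran from -0.12 to -0.0049, Tm7sf2 from -0.058 to -0.0041, Insig2 from 0.0071 to 0.13 and Osbp2 from 0.070 to 0.17. The cause of these shifts was not tested. All 8 members at an unadjusted p under 0.05 kept their direction in every setting.

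Over all tested genes replicate numbers did not pair the diets, since same-numbered libraries correlated at 0.030, -0.024 and 0.036 in their deviations. Over the members these correlations were 0.386, -0.310 and 0.210, and those of differently numbered libraries ran from -0.472 to 0.253. With the replicate number as a block, 0 members passed, 8 had an unadjusted p under 0.05, the member median was -0.01, 0 genes of the wider lists passed and 128 of all tested genes did. Nsdhl, the member with the fewest counts, had a 95% interval from -0.49 to -0.0082, and Hmgcs1 one from -0.21 to -0.018.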
